A study of Mus musculus with 3 samples.

Results

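This account follows 32 mouse genes of glucose and lactate transport, glycolysis and pyruvate entry through 3 single-cell RNA libraries from the direct conversion of fibroblasts toward motor neurons. The genes came from a written list of symbols and not from a cutoff on measured values. That list was chosen with earlier results of these data known. The list holds 4 transporters, 11 genes of upper glycolysis, 7 of lower glycolysis, 2 lactate dehydrogenase subunits, 5 genes of pyruvate entry and 3 enzymes of side branches. All 32 symbols were among the 31744 of the deposited matrices.

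Glycolysis splits glucose into pyruvate in the cytosol and gains ATP and NADH on the way. Pyruvate is then either reduced to lactate by lactate dehydrogenase, which restores NAD, or carried into mitochondria and turned into acetyl-CoA by the pyruvate dehydrogenase complex. Most steps are served by several genes whose use differs between tissues, and the brain is known for its own forms of the glucose transporter, aldolase and enolase.

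The cells were mouse embryonic fibroblasts of genotype Hb9::GFP, a green fluorescent reporter of the motor neuron gene Mnx1. All had received LNI, a single cassette of Lhx3, Ngn2 with an HA tag and Isl1, together with DDRR, which joins HRAS(G12V), an activated form, to p53DD, a fragment that blocks p53. At 14 dpi (a time unit taken over from the labels) Hb9::GFP+ cells were sorted from a culture with supplements (BDNF, CNTF, GDNF, FGF and RepSox, an inhibitor of a TGF-beta receptor kinase) and from a culture without supplements. At 4 dpi, cells with supplements and low signal of CellTrace-FarRed, a dye that thins out as cells divide, were sorted. There is 1 library per group, and the labels give all of them 1 batch date. The 4 dpi library differs from the others in gate and in enzyme of dissociation too (trypsin against papain with DNase), so stage, gate and dissociation cannot be told apart. With 1 library per group there is no replicate, no test and no p-value, and intervals cover counting error only.

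The files hold counts of unique molecular identifiers (UMIs). Filters left 2314 cells of the 14 dpi culture with supplements, 3716 of that without and 4492 of 4 dpi, with a median of 14380.5, 10664 and 2312.5 UMIs per cell in that order. Of 10950 distinct barcodes, 12 occurred in more than 1 library. Levels are given as CPM, the UMIs of a gene per 1e6 UMIs summed over the cells compared. Reads came from the 3′ end of transcripts, so 1 UMI stands for 1 captured transcript whatever its length. Of all UMIs, ribosomal protein genes made up 13.9% in the library with supplements, 19.8% in that without and 20.9% in the 4 dpi library, which bears on every CPM. Of 20 general neuron markers, 20 reached 10 CPM in each 14 dpi library and 14 at 4 dpi. The label of motor neurons was not checked beyond these. Markers of skeletal muscle, glia, macrophages and keratinocytes stayed under 10 CPM in every library, and 1 of 8 endothelial markers passed it.

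Cells were also sorted into classes by marker UMIs after thinning each cell to 1000 UMIs. Dividing cells held at least 3 UMIs of 20 division genes. Of the rest, neuronal-marker cells held at least 3 UMIs of 20 neuron genes and at least 2 times as many as of 20 fibroblast genes, and fibroblast-marker cells the reverse. With supplements 1668 cells were neuronal, 190 fibroblast and 150 dividing, without supplements 1885, 924 and 265, and at 4 dpi 350, 1980 and 1079. These classes are ranges of a score and not cell types, and many cells lie near the limit. For example, 205 of 2283 cells with supplements held 2 or 3 neuron marker UMIs, 640 of 3694 without supplements and 852 of 4379 at 4 dpi. The neuron markers summed to 13584 CPM in the neuronal class and 2312 CPM in the fibroblast class with supplements, to 10232 and 1512 CPM without supplements, and to 7416 and 996 CPM at 4 dpi.

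Together the 32 genes made up 0.523% of UMIs in the library with supplements, 1.14% in that without and 0.595% in the 4 dpi library. The library without supplements thus devoted more of its RNA to them than either of the others. The library with supplements and the 4 dpi library lay close to each other in this sum, which includes Mpc1. Without Mpc1 they lay further apart, as the median cell gave the other members 0.342% of its UMIs with supplements and 0.503% at 4 dpi. The most abundant member was Gapdh in the library without supplements and at 4 dpi, and Mpc1 in the library with supplements. The ubiquitous forms Slc2a1, Hk1, Aldoa, Pgam1, Eno1 and Ldha outnumbered their partners Slc2a3, Hk2, Aldoc, Pgam2, Eno2 and Ldhb in all 3 libraries. Pgam2, the muscle form of phosphoglycerate mutase, had 4 UMIs with supplements, 8 without supplements and none at 4 dpi, where 3 UMIs would have been 0.246 CPM. The only other members that stayed under 10 CPM in every library were Pfkfb4, at 3.28 to 5.98 CPM, and Pdk2, at 2.54 to 9.55 CPM.

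**Figure D1:**
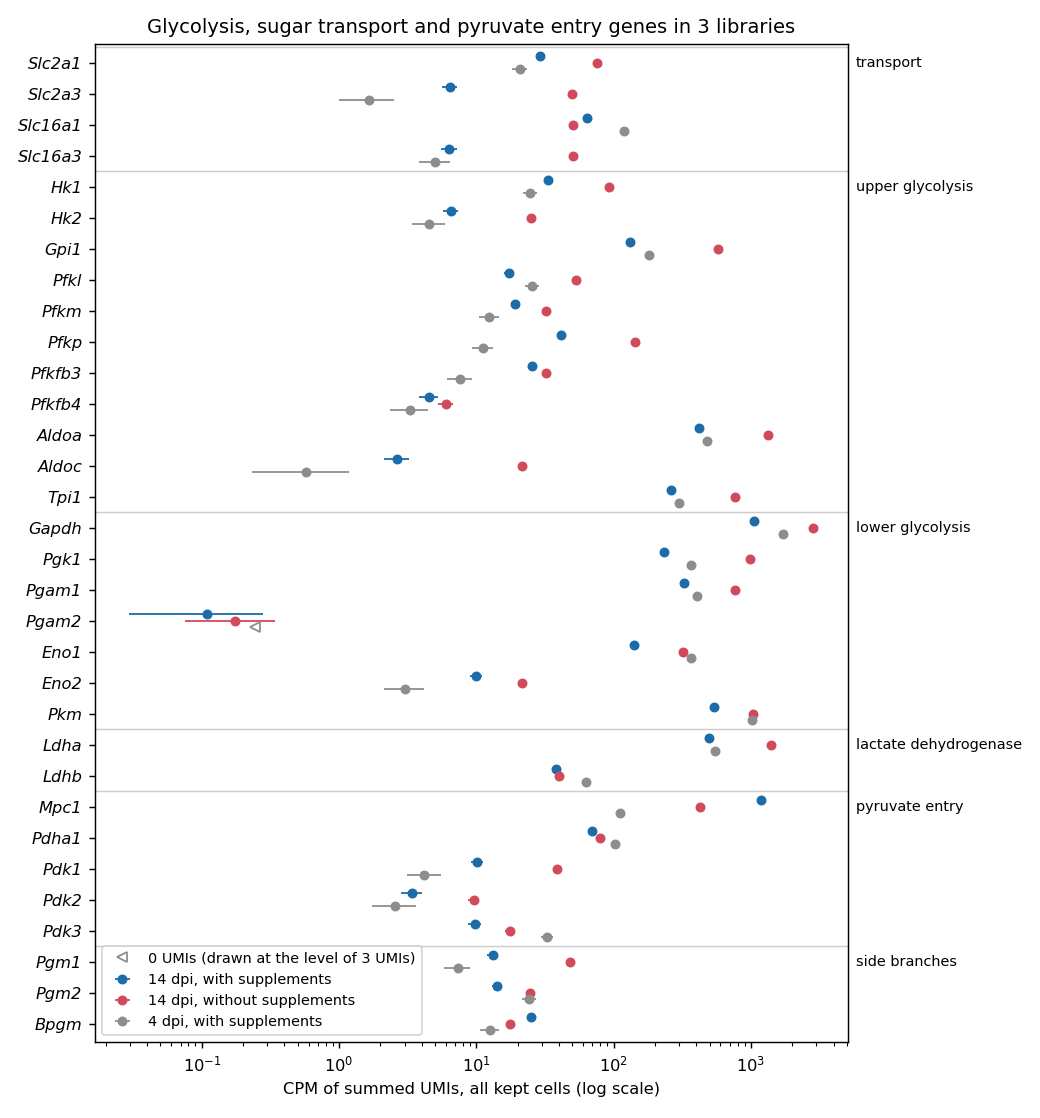
Level of each of the 32 members in the 3 libraries, as CPM of UMIs summed over all kept cells on a log axis, ordered by role; bars are exact Poisson intervals and cover counting error only. The library without supplements lies to the right for most members, with Gapdh at 2853 CPM, while Mpc1 is farthest right with supplements at 1186 CPM.

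The next question was how the 14 dpi cells differed with and without supplements. Of the 29 members that reached 10 CPM in at least 1 of the 2 libraries, 19 were at least 2-fold lower with supplements and 1, Mpc1, was at least 2-fold higher. Over all 9374 genes at that level, 5.18% were at least 2-fold lower and 4.79% at least 2-fold higher. The median log2 ratio, with over without supplements, was -1.45 over these members and 0.03 over all genes. Between these libraries the general neuron markers summed to 11326 CPM with and 6687 CPM without supplements and the fibroblast markers to 2515 CPM with and 4245 CPM without; classes of cells are compared further on. Of the 3 members under that level Pdk2 was also lower, by 2.83 times, from 124 UMIs with supplements and 438 without supplements.

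Among the transporters, 3 of 4 were at least 2-fold lower with supplements. Slc2a1, the widely expressed glucose transporter, had 29.0 CPM with and 75.8 CPM without supplements at 14 dpi, and 20.7 CPM at 4 dpi. Slc2a3, the high-affinity glucose transporter of neurons, had 6.39 CPM with and 50.1 CPM without supplements at 14 dpi, and 1.64 CPM at 4 dpi, a log2 ratio of -2.97 (-3.17 to -2.78) with over without supplements. Slc16a3, a monocarboxylate carrier known for lactate export, had 6.36 CPM with and 51.0 CPM without supplements at 14 dpi, and 5.00 CPM at 4 dpi, and its log2 ratio was -3.00 (-3.20 to -2.81). Slc2a3 and Slc16a3 were thus more than 7 times as high without supplements as in either other library. Slc16a1, the carrier that moves lactate both ways, had 64.3 CPM with and 50.5 CPM without supplements at 14 dpi, and 119 CPM at 4 dpi, so it was 1.27-fold higher with than without supplements and highest at 4 dpi.

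In upper glycolysis, 8 of the 10 members at 10 CPM were at least 2-fold lower with supplements. The hexokinases, which trap glucose by phosphorylation, were among them. Hk1 had 33.4 CPM with and 92.6 CPM without supplements at 14 dpi, and 24.7 CPM at 4 dpi, and Hk2, the hexokinase of muscle and growing cells, had 6.52 CPM with and 25.1 CPM without supplements at 14 dpi, and 4.51 CPM at 4 dpi. Gpi1, the isomerase of glucose 6-phosphate, had 132 CPM with and 579 CPM without supplements at 14 dpi, and 182 CPM at 4 dpi, a 4.39-fold lower level with supplements and a log2 ratio of -2.13 (-2.18 to -2.09). Without supplements Gpi1 thus stood more than 3 times as high as in either other library.

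The phosphofructokinases catalyse the committed step of the pathway. Pfkp, the platelet form, had 41.6 CPM with and 142 CPM without supplements at 14 dpi, and 11.1 CPM at 4 dpi. Pfkl, the liver form, had 17.2 CPM with and 53.3 CPM without supplements at 14 dpi, and 25.5 CPM at 4 dpi. Pfkm, the muscle form, had 19.2 CPM with and 32.4 CPM without supplements at 14 dpi, and 12.4 CPM at 4 dpi. All were lower with than without supplements, Pfkp 3.42-fold, Pfkl 3.09-fold and Pfkm 1.69-fold, and the ranking of Pfkl and Pfkp was opposite at 4 dpi. Pfkfb3 and Pfkfb4 make a regulatory fructose bisphosphate that activates phosphofructokinase and is not its product. Pfkfb3 had 25.4 CPM with and 32.3 CPM without supplements at 14 dpi, and 7.62 CPM at 4 dpi, so its 14 dpi libraries were closer to each other than to 4 dpi.

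All 3 members at the split of the sugar into trioses were at least 2-fold lower with supplements. Aldoa, the main aldolase, had 418 CPM with and 1340.2 CPM without supplements at 14 dpi, and 481 CPM at 4 dpi, 3.20-fold lower with supplements. Aldoc, the aldolase of brain, had 2.64 CPM with and 21.7 CPM without supplements at 14 dpi, and 0.574 CPM at 4 dpi, where 4 dpi had 7 UMIs, and with 8.21-fold its difference was the largest of the 29. Tpi1, triosephosphate isomerase, had 263 CPM with and 769 CPM without supplements at 14 dpi, and 302 CPM at 4 dpi, 2.92-fold lower with supplements.

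In lower glycolysis, 5 of 6 members at 10 CPM were at least 2-fold lower with supplements. Gapdh, the dehydrogenase that yields NADH, had 1047 CPM with and 2853 CPM without supplements at 14 dpi, and 1701 CPM at 4 dpi. Pgk1, phosphoglycerate kinase, which makes the first ATP of the pathway, had 233 CPM with and 989.7 CPM without supplements at 14 dpi, and 364 CPM at 4 dpi, a log2 ratio of -2.09 (-2.12 to -2.06) with over without supplements. Pgam1, the main phosphoglycerate mutase, had 323 CPM with and 763 CPM without supplements at 14 dpi, and 404 CPM at 4 dpi. The gap was therefore widest at Pgk1, 4.26-fold, against 2.73-fold for Gapdh and 2.36-fold for Pgam1.

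At the last steps of the pathway the gap was narrower than at Pgk1. Eno1, the ubiquitous enolase, had 139.5 CPM with and 321 CPM without supplements at 14 dpi, and 365 CPM at 4 dpi. Eno2, the enolase of neurons, had 9.92 CPM with and 21.3 CPM without supplements at 14 dpi, and 3.03 CPM at 4 dpi. Pkm, pyruvate kinase, had 541 CPM with and 1040.4 CPM without supplements at 14 dpi, and 1009.9 CPM at 4 dpi. Eno1 was 2.30-fold and Eno2 2.15-fold lower with than without supplements, and Pkm, at 1.92-fold, did not reach the 2-fold limit. For both Eno1 and Pkm the 4 dpi level was near that without supplements at 14 dpi. Eno1b, a near-identical copy of Eno1, had 8.59 CPM with and 16.7 CPM without supplements at 14 dpi, and 10.6 CPM at 4 dpi, and how reads were split between the copies is uncertain.

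Lactate dehydrogenase is a tetramer of A and B subunits. Ldha, the subunit of glycolytic tissues, had 499 CPM with and 1409 CPM without supplements at 14 dpi, and 546 CPM at 4 dpi, 2.83-fold lower with supplements. Ldhb, the subunit of oxidative tissues, had 38.1 CPM with and 39.8 CPM without supplements at 14 dpi, and 62.9 CPM at 4 dpi, and its interval with over without supplements on the log2 scale (-0.17 to 0.04) spans 0. A difference in Ldhb over all cells was thus not detected, while the cell classes differed in direction, as given further on.

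At the entry of pyruvate into mitochondria the members differed in opposite directions. Mpc1, a subunit of the mitochondrial pyruvate carrier, had 1186 CPM with and 424 CPM without supplements at 14 dpi, and 111 CPM at 4 dpi, 2.80-fold higher with than without supplements (log2 ratio 1.48, 1.46 to 1.51). Pdk1, a kinase that switches pyruvate dehydrogenase off, had 10.1 CPM with and 38.7 CPM without supplements at 14 dpi, and 4.18 CPM at 4 dpi, 3.81-fold lower with supplements. Pdk3, another such kinase, had 9.71 CPM with and 17.5 CPM without supplements at 14 dpi, and 32.6 CPM at 4 dpi. Pdha1, the catalytic subunit of pyruvate dehydrogenase that these kinases act on, had 69.2 CPM with and 79.2 CPM without supplements at 14 dpi, and 102 CPM at 4 dpi. Mpc1 and Pdk1 were thus more than 2-fold apart on opposite sides, while Pdk3 and Pdha1 were between the limits.

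Of the side branches, Pgm1, which links glucose phosphate to glycogen, had 13.2 CPM with and 47.8 CPM without supplements at 14 dpi, and 7.29 CPM at 4 dpi, 3.62-fold lower with supplements. Pgm2, a related phosphomutase, had 14.2 CPM with and 24.6 CPM without supplements at 14 dpi, and 24.1 CPM at 4 dpi. Bpgm, which makes the bisphosphoglycerate that loosens oxygen from haemoglobin in red cells, had 25.1 CPM with and 17.5 CPM without supplements at 14 dpi, and 12.5 CPM at 4 dpi. Bpgm and Slc16a1 were the members other than Mpc1 that were higher with than without supplements, by 1.43 and 1.27 times, both short of 2-fold.

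**Figure D2:**
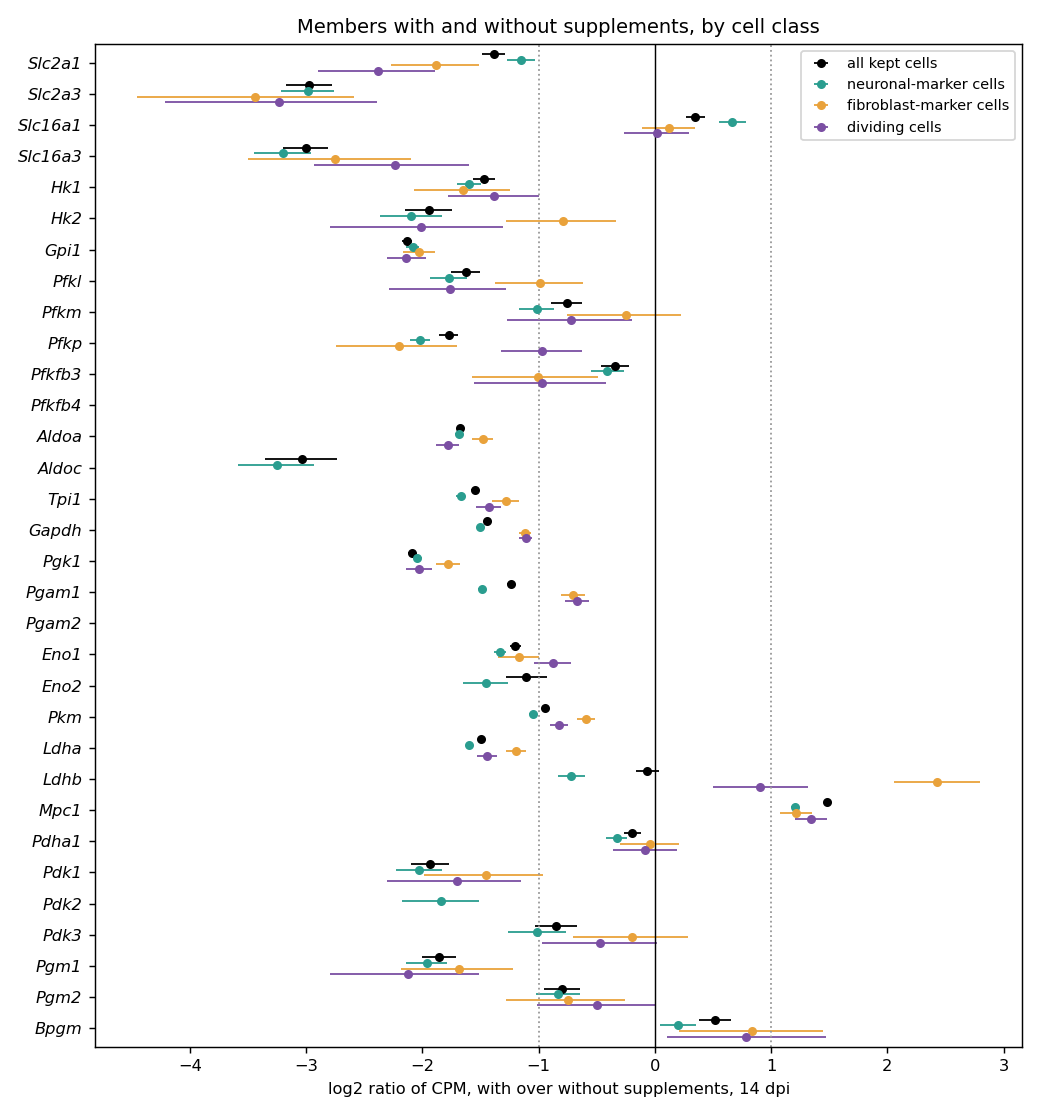
Log2 ratio of CPM with over without supplements at 14 dpi for each member, in all kept cells and in the 3 cell classes, for members at 10 CPM or more in either sum; bars are exact binomial intervals for counting error, and dotted lines mark 2-fold. Most points lie left of -1, Mpc1 lies right of 1 in every class, and Ldhb lies on both sides, at -0.72 in neuronal-marker and 2.43 in fibroblast-marker cells.

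The sequence around the transcription start is shown for the 4 members with the lowest log2 ratio that have an entry in the promoter table, and for Mpc1, which was higher, so that members on opposite sides can be read together. Each window runs from 250 bases before to 50 bases after a start of the RefSeq annotation of GRCm38.p6, which is an older build than the GRCm39 of the count files. The transcription factor HIF, which oxygen restrains, is known to bind the cores ACGTG and GCGTG, and capitals mark these letters on either strand, so that CACGT and CACGC stand for the opposite strand.
Aldoc, chr11:78322823-78323122, plus strand: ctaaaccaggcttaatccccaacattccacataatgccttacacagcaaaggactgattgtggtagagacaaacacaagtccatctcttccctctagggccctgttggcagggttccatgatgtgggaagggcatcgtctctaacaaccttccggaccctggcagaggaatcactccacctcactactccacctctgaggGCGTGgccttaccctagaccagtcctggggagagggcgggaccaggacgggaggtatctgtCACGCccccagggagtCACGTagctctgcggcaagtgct
Slc16a3, chr11:120948817-120949116, plus strand: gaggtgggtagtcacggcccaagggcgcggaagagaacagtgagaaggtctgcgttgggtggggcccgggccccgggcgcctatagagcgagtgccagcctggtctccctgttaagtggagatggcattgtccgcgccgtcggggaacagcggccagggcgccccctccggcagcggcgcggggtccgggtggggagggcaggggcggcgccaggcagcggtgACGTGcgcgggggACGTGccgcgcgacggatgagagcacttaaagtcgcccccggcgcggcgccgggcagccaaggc
Gpi1, chr7:34230287-34230586, minus strand: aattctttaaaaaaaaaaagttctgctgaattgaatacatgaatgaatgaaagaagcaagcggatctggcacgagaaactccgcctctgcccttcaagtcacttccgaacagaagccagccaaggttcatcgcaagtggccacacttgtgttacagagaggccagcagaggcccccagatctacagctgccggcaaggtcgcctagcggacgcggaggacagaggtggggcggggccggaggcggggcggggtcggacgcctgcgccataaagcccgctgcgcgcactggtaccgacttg
Pgk1, chrX:106186850-106187149, plus strand: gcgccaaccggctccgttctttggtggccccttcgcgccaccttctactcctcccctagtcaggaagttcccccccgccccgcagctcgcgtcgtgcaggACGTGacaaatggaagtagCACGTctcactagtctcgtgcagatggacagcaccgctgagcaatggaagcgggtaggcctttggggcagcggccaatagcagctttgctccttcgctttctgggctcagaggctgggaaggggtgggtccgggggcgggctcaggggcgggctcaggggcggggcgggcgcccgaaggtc
Mpc1, chr17:8283537-8283836, plus strand: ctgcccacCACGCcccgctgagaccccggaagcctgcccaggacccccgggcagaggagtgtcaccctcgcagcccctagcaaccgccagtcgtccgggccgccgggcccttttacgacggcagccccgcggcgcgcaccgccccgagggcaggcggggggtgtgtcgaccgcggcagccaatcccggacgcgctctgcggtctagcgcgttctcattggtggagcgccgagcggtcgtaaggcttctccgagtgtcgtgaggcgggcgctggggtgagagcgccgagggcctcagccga
Aldoc and Mpc1 have 2 windows each in the table, and the one with the most cores is printed. The second Mpc1 window holds none. The Aldoc window printed holds 3 cores, those of Slc16a3 and Pgk1 hold 2 each, that of Mpc1 holds 1, and that of Gpi1 holds none although Gpi1 was among the members lowest with supplements. Over the 31 members with an entry, 34 of 46 windows (73.9%) held at least 1 core and 50% at least 2, against 43.8% and 17.3% of all 32851 windows of the table. The member windows are richer in G and C, with a median of 61.7% against 52.7%. Among windows with at least 60% G and C the shares with at least 1 core were 92% of 25 member windows and 69.2% of all 9690. Of the 26 windows of members at least 2-fold lower with supplements, 76.9% held at least 1 core, 61.5% at least 2 and 23.1% at least 3, against 70%, 35% and 20% of the 20 windows of the other members. Windows and not genes were counted, and some genes have several, such as Pfkm with 4. The other members include those under 10 CPM, among them Pdk2. Slc16a1, Pdk3 and Pdha1, which were not 2-fold lower, had 4 cores each. Of the members at least 2-fold lower, Ldha had up to 5 cores in a window, and Hk1 and Pfkp up to 4. A match of these letters is a description and not a bound site, and the part of these cores in the ratios was not tested.

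The difference with and without supplements was next measured within each cell class. Marker levels still differed with and without supplements inside the classes. Neuron markers summed to 13584 CPM with and 10232 CPM without supplements in the neuronal class, to 2312 and 1512 CPM in the fibroblast class and to 6900 and 2562 CPM in the dividing class. Fibroblast markers summed to 1166 and 1176 CPM, to 13612 and 11846 CPM and to 3417 and 5585 CPM in that order of classes. The part of these markers in the ratios that follow was not tested. Among neuronal-marker cells, 23 of 30 members at 10 CPM were at least 2-fold lower with supplements and 1 was higher, while 5.27% of all genes were that much lower and 4.51% higher. Among fibroblast-marker cells the numbers were 15 lower and 2 higher of 27 (all genes 4.86% and 7.35%), and among dividing cells 14 lower and 1 higher of 27 (6.02% and 9.1%). The median log2 ratio of the members was -1.55 in neuronal, -1.11 in fibroblast and -1.11 in dividing cells. The fibroblast and dividing classes rest on 190 and 150 cells with supplements.

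Several members had ratios of like size in every class. Pgk1 had 223 CPM with and 919 CPM without supplements in neuronal cells, 303 CPM with and 1039.6 CPM without supplements in fibroblast-marker cells and 255 CPM with and 1043 CPM without supplements in dividing cells. Gpi1 had 129 CPM with and 545 CPM without supplements, 173 CPM with and 706 CPM without supplements and 117 CPM with and 513 CPM without supplements in the same order of classes. The log2 ratio of Gpi1 was thus -2.08, -2.03 and -2.14, and Slc2a3 was -2.98, -3.44 and -3.23. For Mpc1, the member higher with supplements, the ratios were 1.20, 1.21 and 1.34, all above 1.

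Other members differed from class to class. Pgam1 had 311 CPM with and 870.4 CPM without supplements in neuronal cells, 339 CPM with and 551 CPM without supplements in fibroblast-marker cells and 387 CPM with and 616 CPM without supplements in dividing cells, so it passed 2-fold in the neuronal class alone. Pfkp had 48.1 CPM with and 195 CPM without supplements in neuronal cells, 13.0 CPM with and 59.7 CPM without supplements in fibroblast-marker cells and 32.4 CPM with and 63.6 CPM without supplements in dividing cells, log2 ratios of -2.02, -2.20 and -0.97. Hk2 had 5.47 CPM with and 23.4 CPM without supplements in neuronal cells, a log2 ratio of -2.10 (-2.37 to -1.83), and 17.2 CPM with and 29.9 CPM without supplements in fibroblast-marker cells, a log2 ratio of -0.79 (-1.28 to -0.34). Whether these differences between classes exceed the variation between cultures was not tested.

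Among members at 10 CPM, Ldhb took opposite directions in different classes. In neuronal cells it had 35.9 CPM with and 59.0 CPM without supplements at 14 dpi, and 111 CPM at 4 dpi. In fibroblast-marker cells it had 57.1 CPM with and 10.6 CPM without supplements at 14 dpi, and 60.0 CPM at 4 dpi, and in dividing cells 39.7 CPM with and 21.2 CPM without supplements at 14 dpi, and 57.0 CPM at 4 dpi. It was therefore lower with than without supplements in neuronal cells (log2 ratio -0.72, -0.84 to -0.60), 5.37-fold higher in fibroblast-marker cells (2.43, 2.06 to 2.80) and 1.87-fold higher in dividing cells (0.91, 0.50 to 1.32). The low value is that of the 924 fibroblast-marker cells without supplements, from 105 UMIs.

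**Figure D3:**
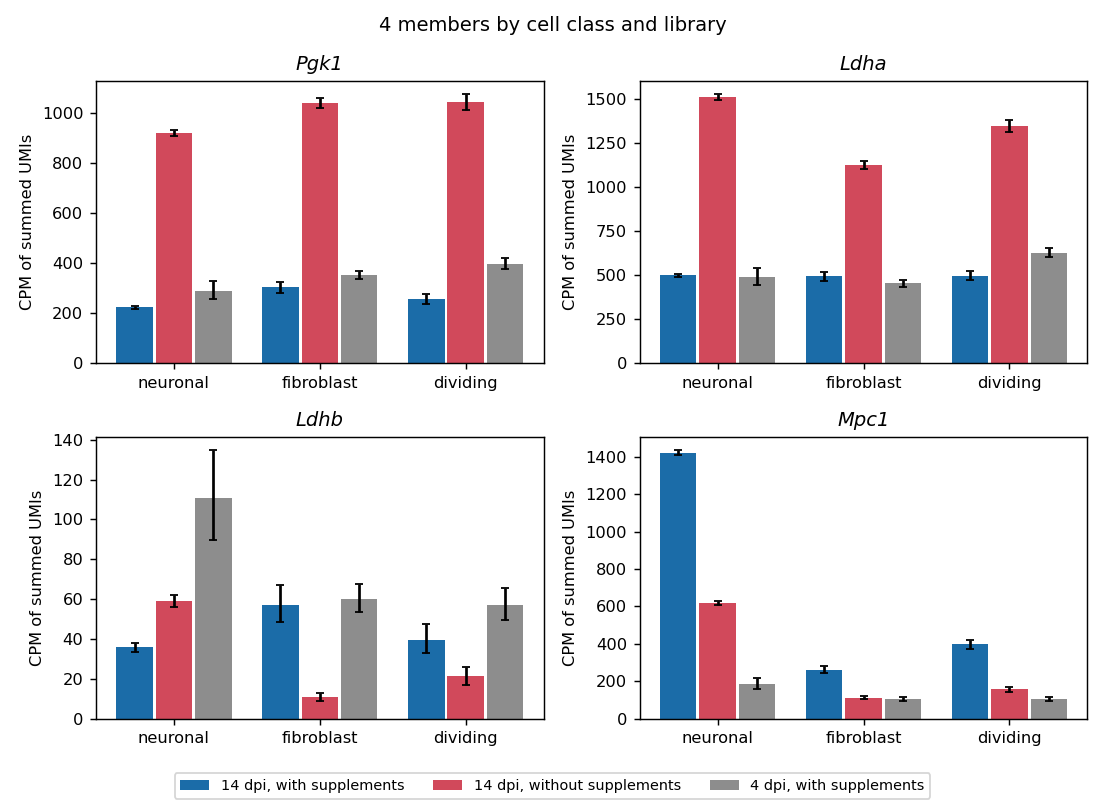
CPM of summed UMIs of Pgk1, Ldha, Ldhb and Mpc1 in neuronal-marker, fibroblast-marker and dividing cells of each library; bars start at 0 and error bars are exact Poisson intervals for counting error. Pgk1 and Ldha are tallest without supplements in every class, Mpc1 is tallest in neuronal cells with supplements at 1422 CPM, and Ldhb is lowest in fibroblast-marker cells without supplements at 10.6 CPM.

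Which form of an enzyme was used is given as its share of the UMIs of all listed forms, and this does not depend on the scaling of a library. For the glucose transporters, Slc2a3 made up 18.0% with and 39.8% without supplements at 14 dpi, and 7.33% at 4 dpi. In neuronal cells it was 18.4% (interval 16.1 to 21.0) with supplements and 44.6% (interval 42.7 to 46.4) without supplements, and in fibroblast-marker cells 14.9% and 34.0%. The larger share of Slc2a3 without supplements was thus seen in neuronal and fibroblast-marker cells alike, and in dividing cells the intervals overlap.

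For the lactate carriers the balance differed with and without supplements. The share of Slc16a3 among UMIs of Slc16a1 and Slc16a3 was 9.01% with and 50.2% without supplements at 14 dpi, and 4.02% at 4 dpi. In neuronal cells it was 8.82% (interval 7.55 to 10.2) with supplements and 58.5% (interval 56.5 to 60.6), the larger part, without supplements. In fibroblast-marker cells it was 8.72% with supplements and 41.2% without supplements, and in dividing cells 11.2% and 37.4%.

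Among phosphofructokinases the leading form differed by library and class. In neuronal cells at 14 dpi Pfkp led, at 57.4% (interval 55.3 to 59.4) with supplements and 67.3% (interval 66.2 to 68.4) without supplements. In fibroblast-marker cells with supplements Pfkl led at 46.6% and Pfkp had 23.3%, while without supplements Pfkp had 45.4% and Pfkl 39.3%. At 4 dpi Pfkl led over all cells, at 52.0% (interval 47.9 to 56.1), with Pfkp at 22.7% (interval 19.4 to 26.3). Neuronal cells at 4 dpi had 46.2% Pfkl (interval 32.2 to 60.5) and 28.8% Pfkp (interval 17.1 to 43.1), from 52 UMIs. Pfkm had 24.6% of these UMIs over all cells with supplements and 14.2% without supplements.

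The kinases of pyruvate dehydrogenase and the phosphoglucomutases showed a like ordering of the libraries. The share of Pdk1 among Pdk1, Pdk2 and Pdk3 was 43.7% with and 58.9% without supplements at 14 dpi, and 10.6% at 4 dpi, and that of Pdk3 was 41.8% with and 26.6% without supplements at 14 dpi, and 82.9% at 4 dpi. The share of Pgm1 of Pgm1 and Pgm2 was 48.2% with and 66.0% without supplements at 14 dpi, and 23.2% at 4 dpi. Pdk1 and Pgm1 had their largest share without supplements in each class, and their smallest at 4 dpi.

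The forms of aldolase and enolase that are known from the brain stayed small parts. Aldoc had 0.763% (interval 0.613 to 0.938) of aldolase UMIs in neuronal cells with supplements and 2.22% (interval 2.07 to 2.39) without supplements. Eno2 had 7.54% (interval 6.76 to 8.39) of enolase UMIs in neuronal cells with supplements and 8.17% (interval 7.63 to 8.74) without supplements, intervals that overlap. Hk2 had 12.9% of hexokinase UMIs in neuronal cells with supplements and 17.3% without supplements, but 45.5% (interval 35.4 to 55.8) and 31.6% (interval 28.6 to 34.6) in fibroblast-marker cells, the reverse order. Ldhb had 6.68% of lactate dehydrogenase UMIs in neuronal cells with and 3.75% without supplements at 14 dpi, and 18.4% (interval 15.2 to 21.9) at 4 dpi.

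**Figure D4:**
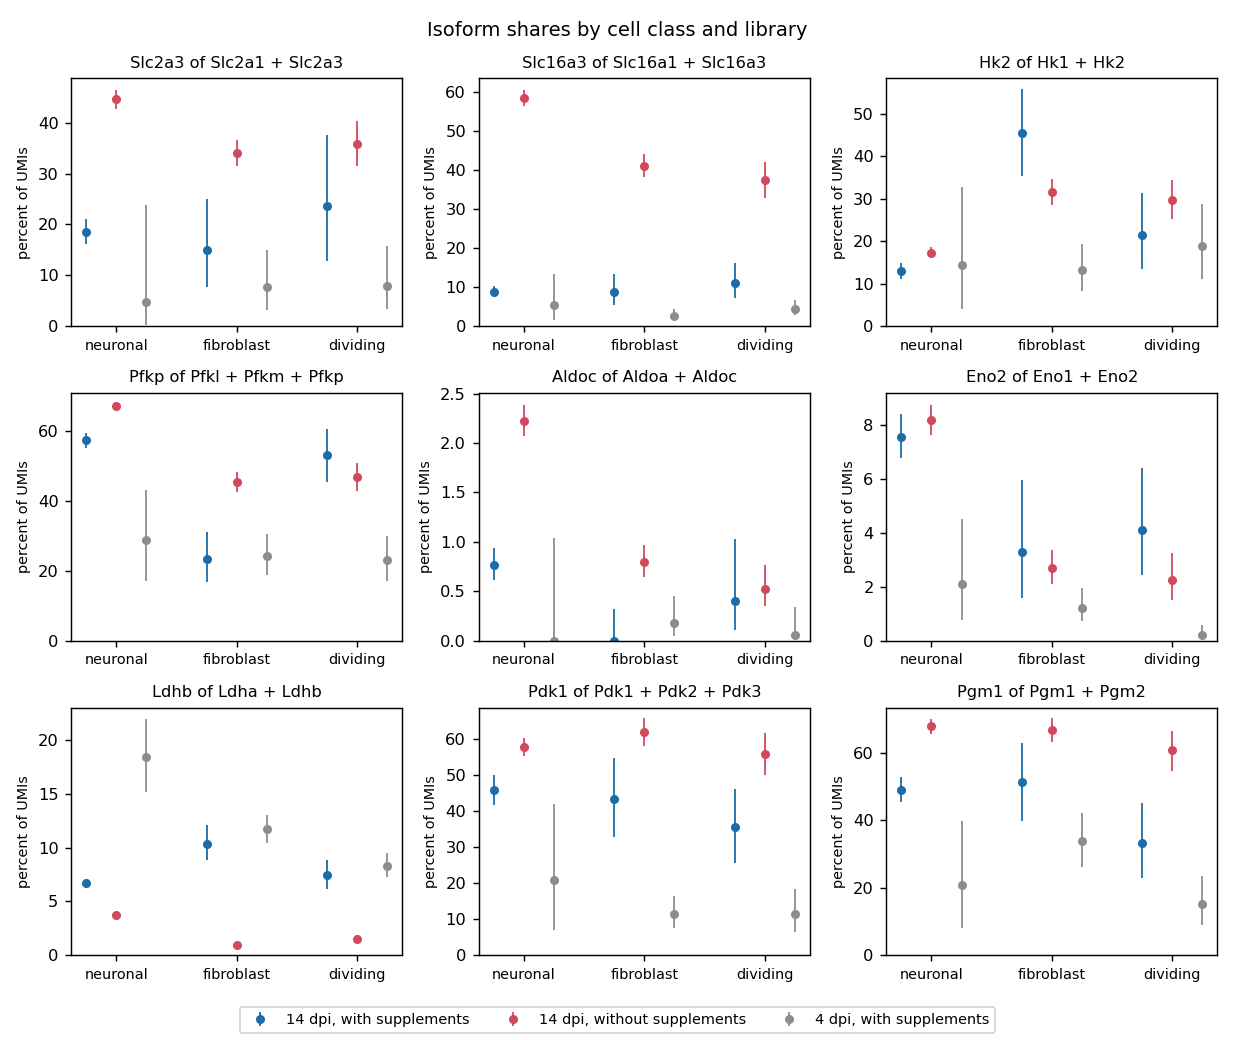
Share of the named form among the UMIs of its group in percent, by cell class, for the 3 libraries; bars are exact binomial intervals for counting error and axes differ between panels. Slc2a3, Slc16a3, Pdk1 and Pgm1 have their highest share without supplements in every class, for example 58.5% for Slc16a3 in neuronal cells, and Ldhb has its lowest there.

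Single cells were then compared by the share of their UMIs from the 31 members other than Mpc1. With supplements the median cell gave them 0.342% of its UMIs, without supplements 1.02% and at 4 dpi 0.503%. In neuronal cells the medians were 0.339%, 1.10% and 0.468% in that order. Neuronal cells with supplements ran from 0.174% at the 5th percentile to 0.850% at the 95th, and those without supplements from 0.348% to 2.33%, a wider spread. Of the 1668 neuronal cells with supplements, 42 (2.52%) lay above the median of those without supplements, and 14 of 190 fibroblast-marker and 11 of 150 dividing cells lay above the median of their class. Most cells with supplements thus lay below the median cell without supplements.

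Across cells this share went along with that of 16 genes that low oxygen is known to induce outside glycolysis. Pearson's r was 0.64 over the 2314 cells with supplements, 0.82 over the 3716 cells without supplements and 0.14 over the 4492 cells at 4 dpi. Both are shares of the same cell's UMIs and the 4 dpi cells are shallow, so these are descriptions. The share had r of 0.03, -0.09 and 0.26 with the log10 of a cell's UMIs, and 0.03, 0.16 and -0.02 with the share of Mpc1, in the same order of libraries. Without supplements, 256 cells held a UMI of Krtdap or Ndufa4l2 among 1000. The 32 members summed to 17275 CPM in them and to 10999 CPM in the other 3438 cells. Ndufa4l2 is among the 16 genes above, so this split is not independent of the r of 0.82. Pgk1 stood at 1844 CPM in the 256 cells and 929 CPM in the others, which is itself above every other library.

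**Figure D5:**
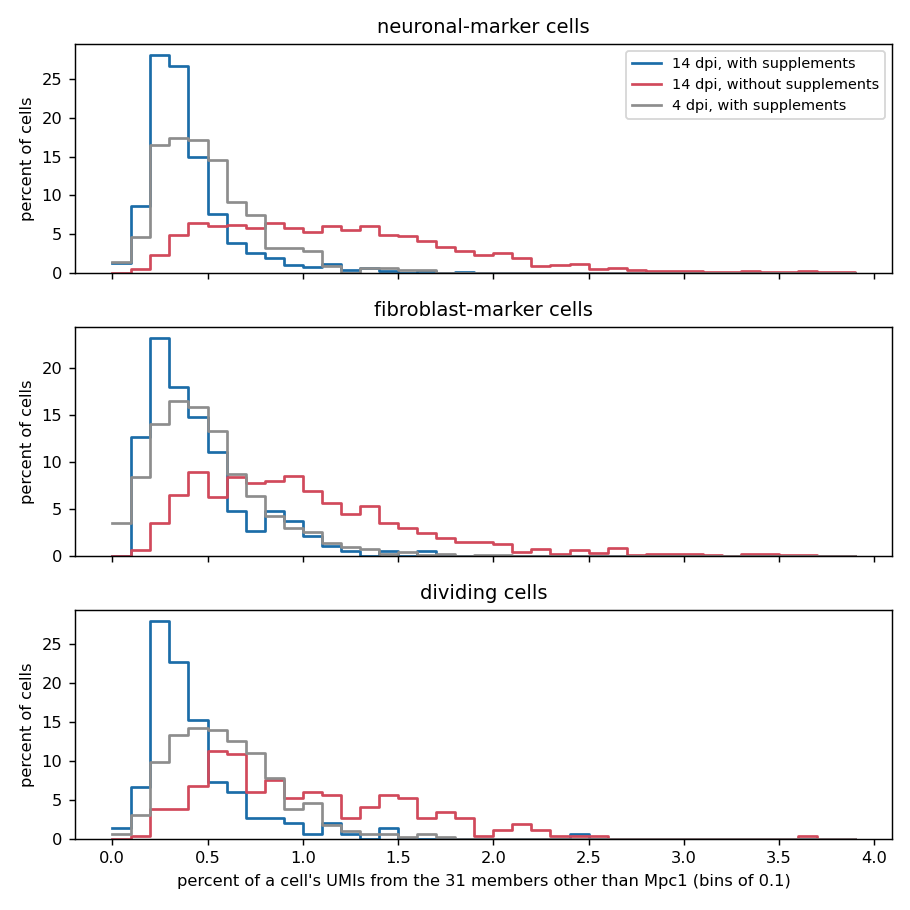
Distribution of single cells by the percent of their UMIs from the 31 members other than Mpc1, in bins of 0.1, for the 3 cell classes and libraries; the vertical axis is the percent of a library's cells of that class. The curves with supplements and at 4 dpi peak at low shares and those without supplements extend to the right, with neuronal medians of 0.339% with supplements, 1.10% without supplements and 0.468% at 4 dpi.

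The 14 dpi libraries were then set against 4 dpi, where stage, gate, dissociation and depth differ together. These comparisons share libraries with each other and with the one above, so they are not independent. With supplements, 5 of 24 members at 10 CPM were at least 2-fold higher at 14 than at 4 dpi and 2 at least 2-fold lower, where 15.4% and 10.1% of all genes were. These shares of members lie near those of all genes. The median log2 ratio of the members was -0.26, and it ranged from -0.33 to 0.35 over the alternatives tried. Without supplements, 19 of 29 members were at least 2-fold higher at 14 dpi than at 4 dpi and 1 lower, where 15.7% and 9.64% of all genes were, with a median log2 ratio of 1.44.

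The members higher with supplements at 14 dpi than at 4 dpi were Mpc1, Pfkp, Pfkfb3, Pdk1 and Bpgm. Mpc1 was 10.7-fold higher (log2 ratio 3.42, 3.34 to 3.50) and Pfkp 3.73-fold (1.90, 1.65 to 2.16). Pfkfb3 was 3.34-fold, Pdk1 2.43-fold and Bpgm 2.01-fold higher, the last just past the limit and past it in 3 of 8 alternatives (log2 ratio 0.94 with a scaling on the median gene). The members lower at 14 dpi were Eno1, 2.61-fold, and Pdk3, 3.36-fold. Gapdh, Pkm and Pgk1 were also lower with supplements at 14 dpi than at 4 dpi, by 1.62, 1.87 and 1.56 times, short of 2-fold.

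Without supplements, all 10 members of upper glycolysis at 10 CPM were at least 2-fold higher at 14 dpi than at 4 dpi, against 2 of 6 in lower glycolysis. Aldoc was 37.7-fold higher, Slc2a3 30.6-fold, Pfkp 12.7-fold and Slc16a3 10.2-fold, with 7 to 136 UMIs behind the 4 dpi values. Pgk1 was 2.72-fold and Ldha 2.58-fold higher. Pkm (0.04, 0.01 to 0.07) and Eno1 (-0.19, -0.23 to -0.14) had log2 ratios near 0, and Slc16a1 was 2.36-fold lower. Of the other late enzymes, Eno2 was 7.04-fold higher, Gapdh 1.68-fold and Pgam1 1.89-fold, so lower glycolysis was mixed.

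Within each library neuronal cells were then compared with fibroblast-marker cells. A scaling on the median gene would lower these log2 ratios by 0.14 with supplements, 0.19 without supplements and 0.17 at 4 dpi. With supplements, 5 of 26 members at 10 CPM were at least 2-fold higher and 2 lower in neuronal cells (all genes 14.4% and 10.6%). Without supplements 7 of 30 were higher and 0 lower (18.9% and 9.83%), and at 4 dpi 2 of 23 were higher and 1 lower (10.1% and 7.45%). The shares of members called lie near those of all genes, and the members' medians were -0.08, 0.31 and 0.13 on the log2 scale in that order of libraries.

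Some members nevertheless stood out between the classes. Mpc1 was 5.44-fold higher in neuronal than in fibroblast-marker cells with supplements, 5.48-fold without supplements and 1.78-fold at 4 dpi. Pfkp was 3.69-fold, 3.26-fold and 1.53-fold higher in the same order, the last with an interval that spans equality (-0.32 to 1.46 on the log2 scale). Bpgm was 2.20-fold, 3.43-fold and 2.52-fold higher. The 3 had the same direction in every library, and without supplements Ldhb (2.47 on the log2 scale) was as far apart as Mpc1 (2.46).

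The neuronal form Eno2 stood at 11.6 CPM in neuronal cells and 3.83 CPM in fibroblast-marker cells with supplements, and at 31.7 and 6.98 CPM without supplements. Aldoc stood at 3.27 CPM in neuronal cells with supplements, with 0 UMIs in fibroblast-marker cells, where 3 UMIs would be 1.15 CPM, and at 31.1 and 9.82 CPM without supplements. Both were thus higher in neuronal cells of the 14 dpi libraries. Ldhb stood at 35.9 CPM in neuronal and 57.1 CPM in fibroblast-marker cells with supplements, at 59.0 and 10.6 CPM without supplements and at 111 and 60.0 CPM at 4 dpi. Its log2 ratio was -0.67 (-0.92 to -0.41) with supplements, 2.47 (2.19 to 2.77) without supplements and 0.88 (0.54 to 1.22) at 4 dpi, and the difference between libraries was not tested.

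On the fibroblast side, Hk2 stood at 5.47 CPM in neuronal and 17.2 CPM in fibroblast-marker cells with supplements (log2 ratio -1.66, -2.15 to -1.14), at 23.4 and 29.9 CPM without supplements, and at 4.52 and 4.38 CPM, from 4 and 21 UMIs, at 4 dpi. Pdk3 stood at 7.57 and 16.9 CPM with supplements, at 15.2 and 19.3 CPM without supplements and at 16.9 and 35.6 CPM at 4 dpi. Slc16a1 was lower in neuronal cells in all 3 libraries, with log2 ratios of -0.35, -0.89 and -0.54. None of these Slc16a1 ratios reached 2-fold.

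Dividing cells were compared with all other cells of their library. With supplements 0 of 25 members at 10 CPM were at least 2-fold higher and 3 lower (all genes 7.33% and 7.37%), without supplements 0 of 30 and 6 (5.72% and 10%), and at 4 dpi 0 of 21 and 0 (3.69% and 1.6%). With supplements Pdk3 was just under the limit and stood at 17.9 CPM in dividing and 9.01 CPM in other cells, 1.99-fold higher (log2 ratio 0.99, 0.54 to 1.42). Pdk3 passed 2-fold there in 7 of 9 alternatives, with log2 ratios of 1.00 to 1.08 in 6 of them and 2.51 in cells thinned to 1000 UMIs. Without supplements its log2 ratio was 0.57 and at 4 dpi -0.26.

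The 3 members lower in dividing cells with supplements were Mpc1, at 396 CPM in dividing and 1254 CPM in other cells, Slc2a1, at 13.5 and 30.3 CPM, and Pfkfb3, at 12.8 and 26.5 CPM. The 6 without supplements were Aldoc, Eno2, Pdk2, Mpc1, Pfkp and Bpgm, all of which were at least 2-fold higher in neuronal than in fibroblast-marker cells of that library. Pfkp there had 63.6 CPM in dividing and 150.3 CPM in other cells. Neuron markers summed to 6900 CPM in dividing cells with and 2562 CPM in those without supplements, and 1541 CPM at 4 dpi, and their part in these ratios was not tested.

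The high-level enzymes differed by less than 2-fold between dividing and other cells. At 4 dpi, where 1079 cells were dividing, Ldha stood at 629 CPM in dividing and 514 CPM in other cells, Eno1 at 417 and 346 CPM and Pgam1 at 469.7 and 378 CPM. Their log2 ratios were 0.29 (0.22 to 0.37), 0.27 (0.18 to 0.36) and 0.31 (0.23 to 0.40), above counting error and well under 2-fold. Without supplements Gapdh had a log2 ratio of -0.01 (-0.03 to 0.02) and Ldha of -0.07 (-0.11 to -0.03). With supplements the directions were mixed, as Gapdh stood at 1315 CPM in dividing and 1024 CPM in other cells and Aldoa at 340 and 425 CPM.

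Genes next to the pathway were taken from lists of their own, also chosen with earlier results of these data known. They were compared with and without supplements over all kept cells. Over all genes at 10 CPM or more, 5.18% were at least 2-fold lower with supplements and 4.79% at least 2-fold higher. Of 26 further genes of pyruvate entry and the citric acid cycle, 24 were at 10 CPM and none was 2-fold apart, with a median log2 ratio of 0.18. Mpc2, the partner subunit of Mpc1 in the carrier, had 287 CPM with and 227 CPM without supplements, a log2 ratio of 0.34 beside 1.48 for Mpc1. Of 14 other sugar and lactate transport genes, 6 were at 10 CPM, 1 of them 2-fold higher (Slc2a13, a carrier of inositol, 1.28) and none 2-fold lower. Bsg and Emb, which escort the monocarboxylate carriers to the membrane, had log2 ratios of -0.89 and -0.90. Mpc2 and, below, Hif1a were picked for naming after their values were seen.

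Of 10 genes of the pentose phosphate pathway 8 were at 10 CPM, and 1 of these was at least 2-fold lower with supplements, Tkt, transketolase, with 45.5 CPM with and 111 CPM without supplements. Of 12 genes of glycogen and sugar nucleotides in the matrices 8 were at 10 CPM, and 2 of these were 2-fold lower, Gfpt2 (-1.49), of hexosamine synthesis, and Gbe1 (-1.08), the glycogen branching enzyme. Genes under 10 CPM were not counted here, although some were also at least 2-fold lower. Of all genes 5.18% were at least 2-fold lower, and counts of 1 or 2 in lists this short say little. None of the 5 genes at 10 CPM of the glycerol phosphate and malate shuttles was 2-fold apart. Of 15 regulators at 10 CPM 3 were 2-fold lower: Txnip, an inhibitor of glucose uptake, with 48.5 CPM with and 153 CPM without supplements, Egln1, an oxygen-sensing hydroxylase, with 34.4 CPM with and 82.8 CPM without supplements, and Arnt, the partner of HIF1A, with 13.0 CPM with and 28.4 CPM without supplements. Hif1a itself had 229 CPM with and 189.6 CPM without supplements. Of 17 further isoforms of the glycolytic enzymes only Eno1b reached 10 CPM.

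Of 16 genes that low oxygen is known to induce outside glycolysis, 15 were at 10 CPM. Of these, 11 were at least 2-fold lower with supplements and none higher, against 5.18% and 4.79% of all genes. The median log2 ratio was -1.44 over the 15. Adm, adrenomedullin, had 7.91 CPM with and 66.5 CPM without supplements, Ero1a, an oxidase of the endoplasmic reticulum, had 35.9 CPM with and 239 CPM without supplements, and Bnip3, which takes part in the removal of mitochondria, had 57.9 CPM with and 379 CPM without supplements. Ndufa4l2, a mitochondrial protein, had 7.97 CPM with and 45.6 CPM without supplements. In neuronal cells 13 of 15 were at least 2-fold lower with supplements, against 5.27% of all genes. The median of this list was near the -1.45 of the 29 members, and its part in their difference was not tested.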

How the data were processed

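Single-cell RNA was profiled in 3 libraries with 10x Genomics 3′ v3.1 chemistry, per the labels' protocols. The deposited matrices hold UMI counts per gene and barcode, made by the authors with Cell Ranger 6.1.1, per the file headers, on GRCm39, per the submitters' processing notes. How cells were called is not stated by any source at hand. Of 31783 features, those sharing a symbol were summed. Aldoa occurs under 2 gene identifiers, 1 of which had 0 UMIs.

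A barcode was kept from 500 genes upward and up to 20% mitochondrial UMIs (153, 177 and 110 removed with supplements, without supplements and at 4 dpi). No doublet caller was run and doublets were kept; an alternative left out the 5% of cells with the most UMIs. UMIs were summed per library or class and given as CPM of 36782509, 45855979 and 12202809 UMIs, with exact Poisson 95% intervals, and ratios and shares with exact binomial (Clopper-Pearson) 95% intervals, all for counting error only. Cells were thinned to 1000 UMIs for classing, which left 31, 22 and 113 shallower cells unclassed. Thinned counts also served to find cells with a Krtdap or Ndufa4l2 UMI, and as an alternative for the ratios. A member was counted at 10 CPM or more in either sum and at a fold of 2. Where a sum had 0 UMIs, 3 were used for a bound. Python 3.11.15, numpy 2.4.6 and scipy 1.17.1 were used, and the ratios were tested on simulated data. The 32 members, all named, and the further lists, of which at most the 4 genes with the largest log2 ratio are named apart from Mpc2 and Hif1a, were chosen with earlier results of these data known. Promoter windows came from RefSeq (GRCm38.p6), which had entries for 31 of the 32 members.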

Additional observations from a re-analysis of the deposited data

Results flagged for a closer look

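Ldhb, the lactate dehydrogenase subunit of oxidative tissues, stood out because its contrast between neuronal-marker and fibroblast-marker cells took opposite directions in different libraries. The log2 ratio, neuronal over fibroblast-marker cells, was -0.67 in the 14 dpi library with supplements, 2.47 in that without and 0.88 in the 4 dpi library, from 976 and 149 UMIs, 1443 and 105 UMIs, and 98 and 288 UMIs. The difference was not tested, since each library stands alone.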

How the results depend on the processing

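No paired analysis was possible because each group holds 1 library, and for the same reason no library could be left out of a group. The 12 counts of members 2-fold apart were recomputed under up to 9 alternatives planned and 2 added after seeing the data (without cells holding Krtdap or Ndufa4l2, and without shared barcodes). Between 14 dpi libraries the count of 20 ranged from 20 to 23, and in neuronal cells that of 24 from 22 to 25. Of the 12 counts, 3 moved by more than 1.5 times under an alternative. Neuronal over fibroblast-marker cells at 4 dpi gave 1 in place of 3 without the 5% of cells with the most UMIs. Dividing over other cells gave 5 in place of 3 with supplements when cells were thinned to 1000 UMIs, and 2 in place of 0 at 4 dpi with no minimum level. With supplements that comparison held 1 or 2 members 2-fold higher in dividing cells, Pdk3 among them, in 7 of 9 alternatives, against 0. The cause was not tested. Of 2860 recomputed log2 ratios of members none that was 2-fold apart changed sign, and 467 moved beyond the counting interval. Signs changed for 0 of 30 members with over without supplements in neuronal cells, and for 1 of 29 in all cells, Ldhb. Small ratios were less stable in the fibroblast-marker and dividing classes, where 3 and 5 of 27 members changed sign, and between classes, where 5 to 10 members did so per comparison. The median with supplements over 4 dpi ranged from -0.33 to 0.35 on the log2 scale. Depth limits the 4 dpi values, where Aldoc rests on 7 UMIs and Slc2a3 on 20.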
